A study of Mus musculus with 3 samples.

Results

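Retinoic acid, the signalling form of vitamin A, is made inside cells in a short chain of steps, and the expression of 8 genes of that chain was measured in stromal cells of the mouse lymph node. The genes were chosen by name, as the rows of the deposited tables whose symbol is Stra6, Rbp4, Rdh10, Aldh1a1, Aldh1a2, Aldh1a3, Crabp1 or Cyp26b1, and they are 8 of 51912 genes listed. All 8 had at least 1 transcript in the cells analysed, and 4 of them had enough to be tested. The cells came from lymph nodes of C57BL/6 mice carrying a transgene in which the Cxcl13 promoter drives Cre and TdTomato, and live PDPN+ TdTomato+ cells without CD31 and CD45 were sorted. In the 2IC group (2 libraries) mice had received a first antigen immune complex (IC) 7 days and a second 24 h before analysis, and in the 1IC group (1 library) they had received 1 IC 24 h before. Nodes of several mice were pooled for each condition, how these pools divide over the libraries is not given in the sources used here, and no library came from mice without an IC, so every cell described is from an immunised node, in a cell that has used the Cxcl13 promoter. The p-values below therefore set differences between cell types only against how these differences vary from library to library, which may be technical.

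Retinol travels in blood on the carrier protein RBP4 and enters cells through the receptor STRA6, and LRAT stores it as esters. RDH10 oxidises retinol to retinal, and ALDH1A1, ALDH1A2 and ALDH1A3 are the enzymes that turn retinal into retinoic acid. Inside the cell CRABP1 binds retinoic acid and CYP26B1 breaks it down, while nuclear receptors of the RAR and RXR families carry its signal to genes. In lymph nodes and gut-associated tissue, retinoic acid is known for its effects on lymphocyte homing and on the development of lymphoid stroma.

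In outline, the receptor Stra6 and the synthetic enzyme Aldh1a3 were highest in cells with transcripts of Cr2, the complement receptor that marks follicular dendritic cells (FDCs), in every library, while the degrading enzyme Cyp26b1 was lowest there. Stra6 was also present, at a lower level, in cells marked by Madcam1. Rdh10 was detected in all types in 2 of the libraries and was highest in 2IC library 2 in every type. In cells with Cr2 this did not hold once barcodes shared between libraries were left out. Aldh1a1, Aldh1a2, Rbp4 and Crabp1 were rare in all types.

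The promoter sequences below show the DNA just before the start site of 3 genes that the results turn on. These are Stra6, Cyp26b1 and the retinol-storing Lrat, a gene outside the 8. Each is the 250 bases before a start site, 5′ to 3′ on the strand of the gene, from RefSeq on GRCm38.p6, and capitals mark a TATAAA sequence.
Stra6: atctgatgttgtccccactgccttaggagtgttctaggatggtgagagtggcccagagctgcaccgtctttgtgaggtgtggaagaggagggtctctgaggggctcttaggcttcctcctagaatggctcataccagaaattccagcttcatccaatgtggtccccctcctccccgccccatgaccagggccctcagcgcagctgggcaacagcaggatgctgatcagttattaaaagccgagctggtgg
Cyp26b1: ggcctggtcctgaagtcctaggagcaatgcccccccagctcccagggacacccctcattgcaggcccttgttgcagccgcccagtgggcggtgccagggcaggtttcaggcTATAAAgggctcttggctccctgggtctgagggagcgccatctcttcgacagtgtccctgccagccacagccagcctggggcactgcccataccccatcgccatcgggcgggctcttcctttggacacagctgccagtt
Lrat: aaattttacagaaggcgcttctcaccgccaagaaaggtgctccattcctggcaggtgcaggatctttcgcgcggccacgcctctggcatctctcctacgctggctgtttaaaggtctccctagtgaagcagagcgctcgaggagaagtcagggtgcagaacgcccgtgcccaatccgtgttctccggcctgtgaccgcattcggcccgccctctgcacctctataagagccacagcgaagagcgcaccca
The Stra6 window is chr9:58128838-58129087 on the plus strand, before 1 of 4 start sites that RefSeq holds for the gene. It lies inside the annotated span of Stra6 that is given below. The Cyp26b1 window is chr6:84593811-84594060 and the Lrat window is chr3:82903975-82904224, both on the minus strand. The Cyp26b1 window runs partly into the annotated span of that gene, which is also given below. Of the 8 genes, 6 had a promoter in the table. On both strands of the 250 bases, the hexamer AGGTCA, which receptors for retinoic acid are known to bind, was searched together with the variant hexamer AGTTCA, the variant hexamer GGGTCA and the variant hexamer GGTTCA. Direct repeats of these 4 spaced by 1, 2 or 5 bases, each of which also holds the hexamer alone, and TATAAA were searched as well. At least 1 hexamer was in 38.6% of 32851 promoters, TATAAA was in 12.4%, and the direct repeats were in 0.164%, 0.174% and 0.0883%. The 4 Stra6 windows and the Lrat window held none of these sequences. The Cyp26b1 window held TATAAA 139 bases before its RefSeq start, and nearer to the start of the annotated gene span. Among the other genes, 1 window of Rbp4 and 1 of Aldh1a1 held a hexamer, 53 and 49 bases before the start and on the minus strand of the gene, and a second Rbp4 window held TATAAA at 28 bases.

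The counts are unique molecular identifiers (UMIs), each standing for 1 captured transcript. The 3 libraries held 3790, 1029 and 667 barcodes and 20607903, 12788101 and 3766526 UMIs in the order 2IC library 1, 2IC library 2 and 1IC library, which is kept for all values below. After filtering, 2243 of 5486 barcodes remained (1526, 391 and 326), with a median of 4701, 14732 and 5979 UMIs per cell, so 2IC library 2 was the deepest per cell. The 2IC libraries shared 76 barcodes, of which 15 were retained in both, 2IC library 1 shared 2 with the 1IC library, of which 1 was retained in both, and 2IC library 2 and the 1IC library shared 0. Levels are given as CPM, the UMIs of the gene per 1000000 UMIs of the summed cells, and are compared between cell types for 1 gene at a time, since counts from the 3′ end do not rank genes against each other.

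Cells were assigned to 5 gates by raw UMIs. At least 1 UMI of Cr2 gave the Cr2 gate (145, 35 and 50 cells), and among the rest at least 2 UMIs of Madcam1 gave the Madcam1 gate (24, 7 and 13 cells). Of the remaining cells, those with at least 2 UMIs of exactly 1 of Tnfsf11, Fmod and Inmt gave the Tnfsf11 gate (83, 27 and 22 cells), the Fmod gate (51, 30 and 10 cells) and the Inmt gate (488, 115 and 82 cells). Another 247 cells passed more than 1 of these last limits (mixed) and 814 passed none (ungated). The gate genes stand for FDCs (Cr2), marginal reticular cells (Madcam1, with Tnfsf11), interfollicular reticular cells (Tnfsf11, with Ch25h), reticular cells of the T-B border (Fmod, with Ccl21a) and of the medulla (Inmt, with Nr4a1). All 7 FDC markers were detected in the Cr2 gate, but detection alone does not set it apart. In each other gate only 1 of the 7 was at 0, which is Cr2 by the rule of the gates. By level, Fcer2a was at 198 and Fcgr2b at 218 CPM in the Cr2 gate against at most 11.3 and 15.2 in the other gates. Cr2 does not mark FDCs alone, since the paper also gives CR2 on B cells, at a lower density. Ccl21a, a ligand of CCR7, was at 15709 CPM in the Fmod gate against at most 5000 elsewhere. Inmt was at 951 CPM in the Inmt gate against 210 in the Cr2 gate. Its high level in its own gate follows from the rule of the gate and does not bear out the name of the type. The Tnfsf11 gate is less distinct. Tnfsf11 was at 532 CPM there and at 553 in the Madcam1 gate, and Ch25h, an oxysterol-making enzyme, was at 70.2 against 133. Retained cells hold no UMI of Cd79a or Cd79b by the filter. Lists of markers of other cells still summed to a mean of 709 CPM for B cells in the Cr2 gate against 243 to 736 in the other gates, to 237 against 61.3 to 145 for myeloid and dendritic cells, and to 104 against 0 to 6.2 for Schwann cells, of which Sox10 was at 0 in the Cr2 gate, as was S100b by the filter. Of the 10 genes of the myeloid and dendritic list, Itgax and Flt3 were at 0 in the Cr2 gate, and of the 6 of the B cell list Cd79a and Cd79b were, by the filter. The T cell list summed to 0 to 10.2 CPM over the gates, the endothelial list to 1.65 to 14.5, the mesothelial list to 0, the pericyte list to 779 to 1180, the adipocyte list to 4.38 to 20.8 and the adventitial list to 0 to 31.5. Their part in the results was not tested.

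**Figure D1:**
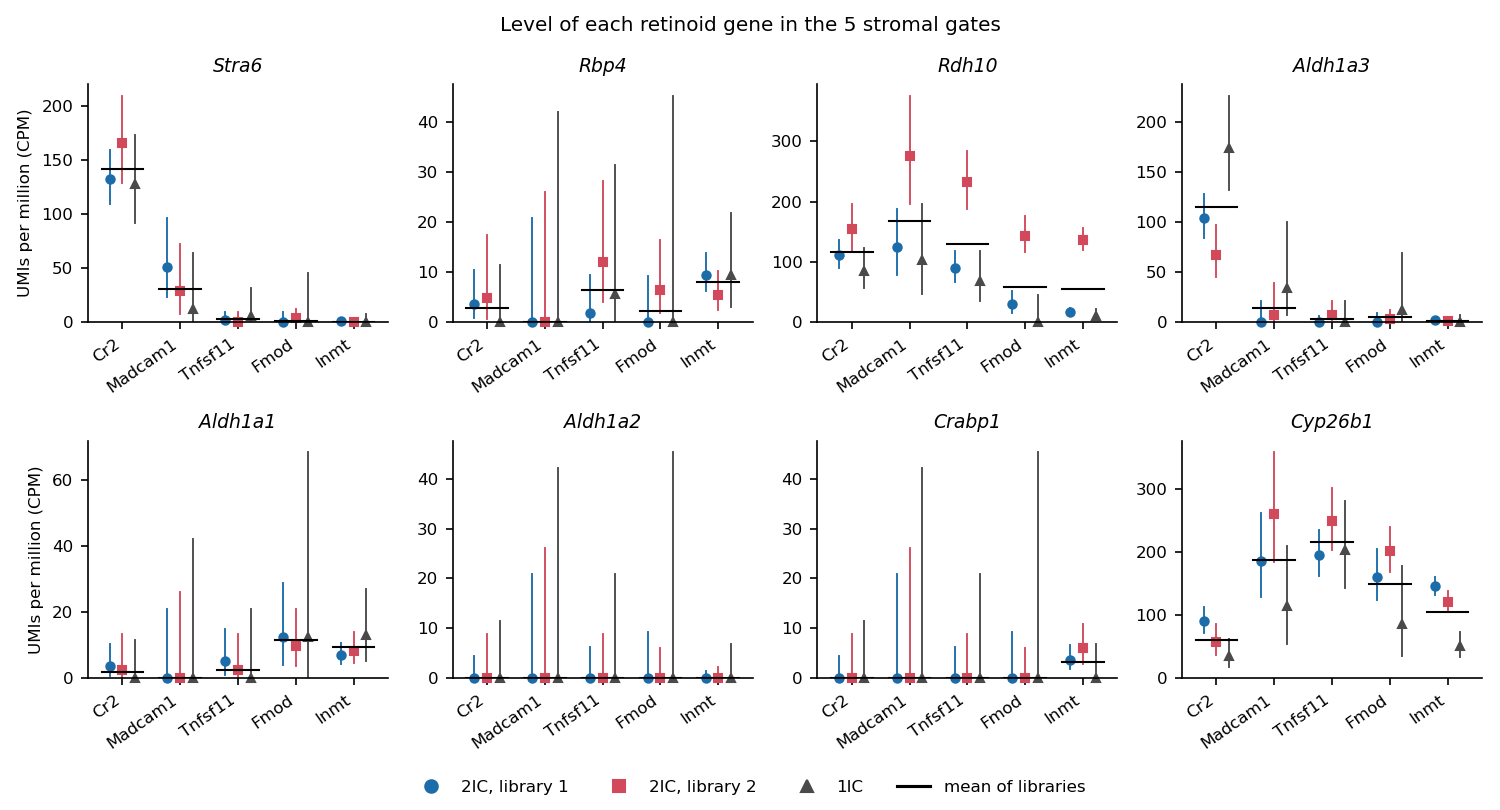
Level of each of the 8 genes (vertical axes, CPM, linear and separate for each gene) in the 5 gates (horizontal axes); points are libraries, vertical lines exact Poisson 95% intervals for counting error, and horizontal bars the mean of 3 libraries. Stra6 and Aldh1a3 stand highest in the Cr2 gate in every library, Cyp26b1 lowest there on average, and Rdh10 of 2IC library 2 lies above the other libraries in every gate. In the Cr2 gate that order of Rdh10 did not hold with shared barcodes left out.

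Stra6, the receptor through which retinol enters cells, was highest in the Cr2 gate. It reached 132, 165 and 128 CPM there (112, 69 and 41 UMIs), a mean of 142 ± 20.6 (SD, n = 3 libraries). In the Madcam1 gate it was at 50.8, 28.2 and 11.4 CPM, on only 9, 4 and 1 UMIs. The Tnfsf11 gate had 1.69, 0 and 5.64 CPM, the Fmod gate 0, 3.23 and 0, and the Inmt gate 0.726, 0 and 0. The order Cr2 gate, Madcam1 gate, other gates held in all 3 libraries, and the ranges of the Cr2 gate, the Madcam1 gate and the rest did not overlap, while the levels of the 3 lowest gates did not differ beyond their spread. In the 1IC library the Madcam1 and Tnfsf11 gates held 1 Stra6 UMI each. With gates at 1 UMI that library had 9.27 CPM in the Madcam1 gate and 12.4 in the Tnfsf11 gate. With barcodes low in the nuclear RNA Malat1 left out it had 0 and 5.64 CPM, so the place of the Madcam1 gate did not hold there. The Cr2 gate held 85.4% of all Stra6 UMIs of the retained cells but 9.88% of their UMIs of any gene.

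The test compared each gate with the mean of the other 4 on the log2 scale, using edgeR's quasi-likelihood test on the counts summed per library and gate, with the library as a block and Benjamini-Hochberg adjustment over 7044 genes. Of the 4 genes tested (Stra6, Aldh1a3, Rdh10 and Cyp26b1), 3 were called in the Cr2 gate, where 15.5% of all genes were called. The count was 1 in the Madcam1 gate (5.85% of all genes), 1 in the Tnfsf11 gate (1.06%), 0 in the Fmod gate (7.92%) and 3 in the Inmt gate (17.4%). Stra6 and Aldh1a3 had few UMIs outside the Cr2 gate and passed the filter on low counts through that gate. Which genes were tested thus depended on the gate where they are high, so these counts are no test against the shares of all genes. The p-values of Stra6 and Aldh1a3 in the Cr2 gate carry the same limit. In the Fmod gate 2 of the 4 passed an unadjusted p of 0.05 in edgeR, and DESeq2 called 0. Stra6 was higher in the Cr2 gate by 5.65 ± 0.30 (log2, SE; edgeR adjusted p = 2.8e-13) and in the Madcam1 gate by 2.93 ± 0.60 (edgeR adjusted p = 0.0038), and its difference in the Inmt gate was -4.21 ± 0.85 (edgeR adjusted p = 0.00076). A comparison with the mean of the other gates includes the Cr2 gate, so a low value in the Inmt gate also reflects how high the Cr2 gate is. Because the other gates were near 0, the fitted size is imprecise. Pooled over the other 4 gates, Stra6 was 43.4-fold higher in the Cr2 gate of 2IC library 1 (95% interval for counting error 23.9 to 86.4), 78.8-fold in 2IC library 2 (34.4 to 222) and 56.1-fold in the 1IC library (14.6 to 479). The call in the Madcam1 gate held in 11 of 14 alternatives. It was lost without 2IC library 1, at 2.41 (edgeR adjusted p = 0.19), with gates at 1 UMI, at 1.94 (edgeR adjusted p = 0.076), and with cells thinned to 2000 UMIs, at 2.95 (edgeR adjusted p = 0.14). In 2IC library 2, 3 of the 4 Stra6 UMIs of that gate came from 1 barcode shared with 2IC library 1. With all shared barcodes left out, the differences were 6.54 in the Cr2 gate and 3.51 in the Madcam1 gate, both still called, while that in the Inmt gate was -3.33 and no longer called (edgeR adjusted p = 1). Leaving out 2IC library 2 ended the call in the Inmt gate too, at -3.10 (edgeR adjusted p = 1). That call held in 10 of 14 alternatives.

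**Figure D2:**
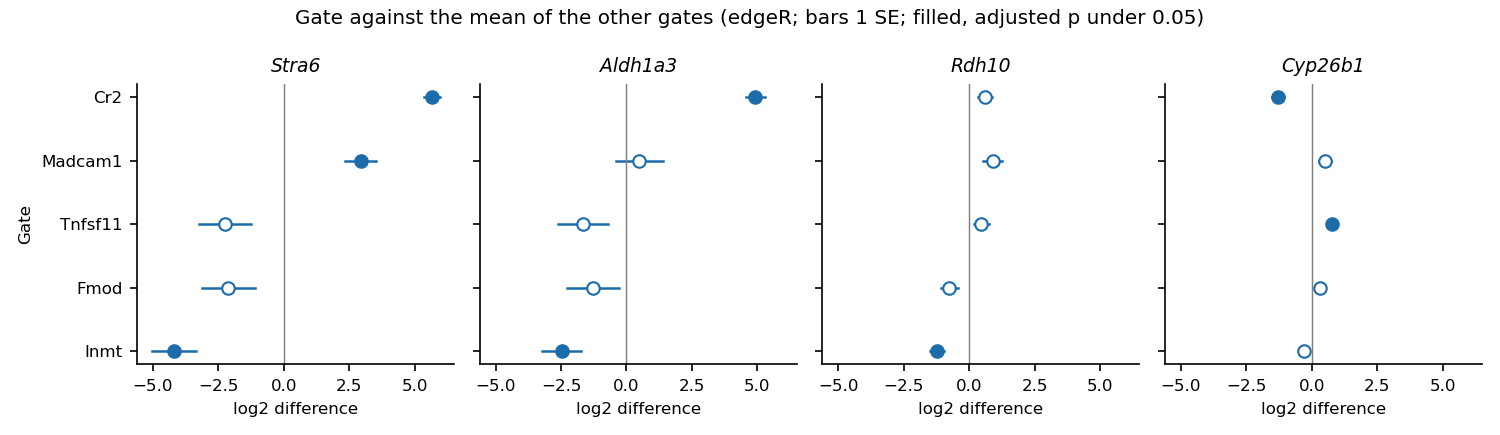
Fitted difference of each gate from the mean of the other 4 gates (horizontal axis, log2) for the 4 genes tested, with bars of 1 SE; filled points have an edgeR adjusted p under 0.05. Stra6 and Aldh1a3 lie near 5 in the Cr2 gate, Cyp26b1 lies at -1.29 there, and the Rdh10 point is filled in the Inmt gate.

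By cell, a Stra6 UMI was found in 32.4%, 51.4% and 32.0% of cells of the Cr2 gate. The share was 20.8%, 28.6% and 7.69% in the Madcam1 gate and at most 6.67% in any other gate of a library. B cell barcodes, which should lack the gene, had a share of 1.79%, 3.12% and 1.18% at a median depth of 3756 UMIs, against a median of 5687 in the Cr2 gate. Thinning every cell to 2000 UMIs left shares of 20.7%, 23.5% and 21.4% in the Cr2 gate and 1.07%, 2.08% and 0.625% in B cell barcodes, so the share in the Cr2 gate was close to the same in all libraries once depth was equal. For this, 197 of 230 cells of the Cr2 gate and 631 of 711 B cell barcodes were deep enough. The 13 B cell barcodes with a Stra6 UMI had a median of 33 UMIs of Cxcl13, a stromal transcript, against 0 in those without.

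The annotated Stra6 gene (ENSMUSG00000032327) spans chr9:58063788-58153996 on the plus strand of GRCm38. It overlaps Ccdc33 on the opposite strand over 55036 bases and the antisense gene Gm16131 on the same strand over 1175 bases, and whether the counting used strand is not given in the sources used here, so reads in the overlaps are uncertain.

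Rbp4, the carrier that brings retinol to STRA6, was found in few cells, with 97 UMIs in 69 of the 2243 cells. It was at 9.44, 5.35 and 9.38 CPM in the Inmt gate, 1.69, 12.1 and 5.64 in the Tnfsf11 gate, 3.55, 4.80 and 0 in the Cr2 gate, 0, 6.45 and 0 in the Fmod gate and 0 in all libraries of the Madcam1 gate. These are 40 UMIs in the Inmt gate and 16 in all others together, and neighbouring gates in the order of means did not differ beyond their spread. Rbp4 did not pass the filter on low counts and was not tested in the main fit. With no filter it was called higher in the Inmt gate (edgeR adjusted p = 0.042). The 0 UMIs of the Madcam1 gate allow up to 7.38 CPM, so a level like that of the Cr2 gate was not detectable as a difference. The gene (ENSMUSG00000024990) lies at chr19:38116629-38125281 on the minus strand.

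Rdh10, which makes retinal from retinol, differed between the libraries, by up to 14.6-fold in the Inmt gate and 1.83-fold in the Cr2 gate. In 2IC library 2 it was at 153, 275, 232, 144 and 137 CPM in the Cr2, Madcam1, Tnfsf11, Fmod and Inmt gates. In 2IC library 1 the same gates had 111, 124, 89.4, 29.7 and 17.1 CPM, and in the 1IC library 84.1, 103, 67.7, 0 and 9.38. In every gate 2IC library 2 was the highest, and also in the mixed cells (18.7, 153 and 39.2 CPM) and the ungated cells (32.4, 212 and 22.7 CPM). In the Cr2 gate this did not hold with shared barcodes left out. Rdh10 was then at 111, 49.7 and 84.1 CPM, with 2IC library 2 the lowest. In the Inmt gate, which has the most cells of the 5, Rdh10 of 2IC library 2 was 8.02-fold above 2IC library 1 and 14.6-fold above the 1IC library. As background, of the genes that reached 20 CPM in that gate in at least 1 of the libraries compared, 0.477% of 6503 and 2.07% of 6659 were 4-fold or more above in 2IC library 2. The titles of both 2IC libraries give the same treatment, but their short descriptions differ, so whether the difference goes with the treatment cannot be told apart from the library. Over all retained cells Rdh10 was at 39.4, 165 and 37.1 CPM.

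**Figure D3:**
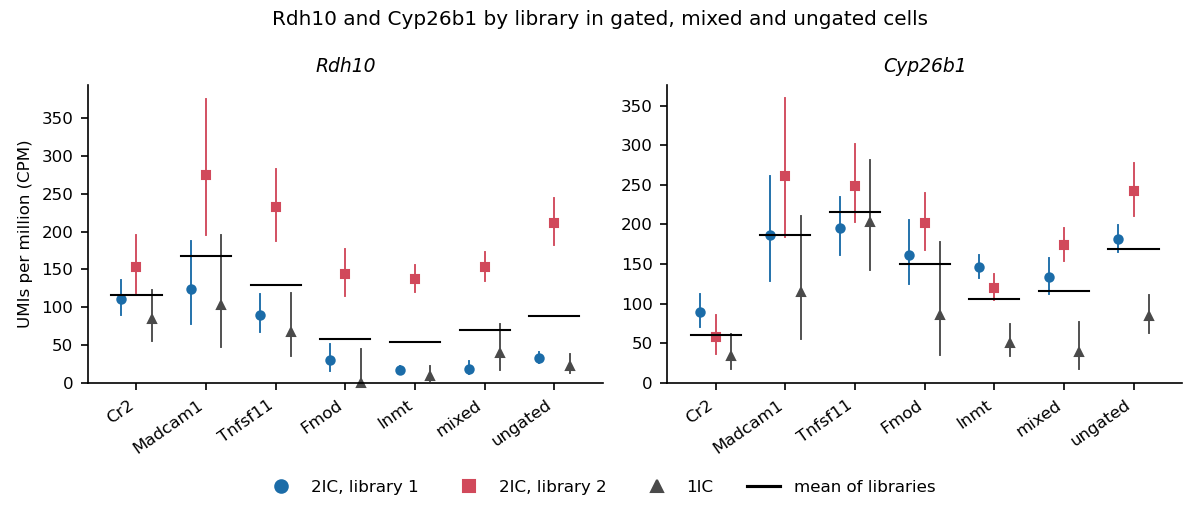
Rdh10 and Cyp26b1 (vertical axes, CPM, linear) in the 5 gates, the mixed and the ungated cells (horizontal axes); points are libraries with exact Poisson 95% intervals for counting error, and horizontal bars are the mean of 3 libraries. Rdh10 of 2IC library 2 is the highest in every group of cells, in the Cr2 gate only with shared barcodes kept. Cyp26b1 of the 1IC library is the lowest except in the Tnfsf11 gate.

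Within both 2IC libraries Rdh10 was lowest in the Inmt gate, and within the 1IC library only the Fmod gate was lower. With shared barcodes left out, 2IC library 2 had 132 CPM in the Inmt gate against 49.7 in the Cr2 gate. In the fit with all retained barcodes, Rdh10 was lower in the Inmt gate. Its difference from the mean of the other gates was -1.21 ± 0.27 there (log2, SE; edgeR adjusted p = 0.0021). Against the other 4 gates pooled, with shared barcodes kept, the ratio in the Inmt gate was 0.190 in 2IC library 1 (95% interval for counting error 0.135 to 0.264). It was 0.757 in 2IC library 2 (0.633 to 0.903) and 0.130 in the 1IC library (0.0405 to 0.326), all below 1 but unequal. These intervals do not cover UMIs that gather in single cells. In the Inmt gate of 2IC library 2, 3 cells held 75 of the 230 Rdh10 UMIs. The ratio of that library without shared barcodes was not computed. Without 2IC library 1 the fitted difference was -0.84 and no longer called (edgeR adjusted p = 0.11), and without 2IC library 2 it was -2.12. The call was also lost with no library block, at -0.99 (edgeR adjusted p = 0.45), and with barcodes holding B cell RNA left out, at -0.92 (edgeR adjusted p = 0.096). In the Cr2 gate the fitted difference was 0.61 ± 0.28 (edgeR adjusted p = 0.17) and in the Madcam1 gate 0.90 ± 0.36 (edgeR adjusted p = 0.18), neither past the threshold. Rdh10 was called higher in 3 of 14 alternatives in the Cr2 gate and in 4 of 14 in the Madcam1 gate. In the Cr2 gate these were the fit without 2IC library 2, at 1.27 (edgeR adjusted p = 0.00044), the gate at 2 Cr2 UMIs, at 0.85 (edgeR adjusted p = 0.046), and no filter on low counts, at 0.65 (edgeR adjusted p = 0.017). In the Madcam1 gate the difference was 1.36 without 2IC library 2 (edgeR adjusted p = 0.024), 1.13 with gates at 1 UMI (edgeR adjusted p = 0.0088), 0.82 with no filter (edgeR adjusted p = 0.037) and 1.14 with contaminant barcodes kept (edgeR adjusted p = 0.043). With gates at 1 UMI, 1 cell held 59 of the 103 Rdh10 UMIs in the Madcam1 gate of 2IC library 2. In the Cr2 gate of 2IC library 2, 1 cell held 43 of the 64 Rdh10 UMIs, and the 2 shared barcodes of that gate held 46. Leaving out the shared barcodes lowered the mean of the Cr2 gate from 116 to 81.7 CPM and the fitted difference to 0.31. A Rdh10 UMI was found in 35.2%, 37.1% and 34.0% of cells of the Cr2 gate and in 8.20%, 32.2% and 6.10% of cells of the Inmt gate. The share of cells in the Cr2 gate was thus near the same in the 3 libraries, while that in the Inmt gate was not. These shares were not corrected for depth. The median UMIs per cell were 5166, 10091 and 4836.5 in the Cr2 gate and 4899.5, 14131 and 6376 in the Inmt gate. In the Fmod gate the 1IC library had 0 UMIs in 10 cells, which allows up to 36.9 CPM. Rdh10 (ENSMUSG00000025921) lies at chr1:16105774-16133734 on the plus strand.

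The 3 ALDH1A enzymes did not share a pattern. Aldh1a3 was at 104, 67.2 and 174 CPM in the Cr2 gate (88, 28 and 56 UMIs), a mean of 115 ± 54.4 (SD, n = 3 libraries). The Madcam1 gate had 0, 7.05 and 34.3 CPM, the Tnfsf11 gate 0, 7.25 and 0, the Fmod gate 0, 3.23 and 12.3, and the Inmt gate 2.18, 0.595 and 0. The Cr2 gate was highest in every library and did not overlap with any other, whereas the other 4 gates overlapped. It held 81.5% of all Aldh1a3 UMIs. The difference from the mean of the other gates was 4.93 ± 0.36 in the Cr2 gate (log2, SE; edgeR adjusted p = 1.8e-10) and -2.47 ± 0.75 in the Inmt gate (edgeR adjusted p = 0.022). The call in the Inmt gate held in 8 of 13 alternatives. Among others, it was lost without 2IC library 2, at -1.19 (edgeR adjusted p = 0.99), and without the 1IC library, at -1.92 (edgeR adjusted p = 0.22). As for Stra6, a low value in the Inmt gate also reflects how high the Cr2 gate is. In the Madcam1 gate the difference was 0.49 ± 0.91 (edgeR adjusted p = 0.86). Pooled over the other 4 gates, Aldh1a3 was 68.1-fold higher in the Cr2 gate of 2IC library 1 (95% interval 30.1 to 191), 27.4-fold in 2IC library 2 (11.7 to 74.3) and 38.3-fold in the 1IC library (14.2 to 145). An Aldh1a3 UMI was found in 32.4%, 37.1% and 42.0% of cells of the Cr2 gate against 2.24%, 3.12% and 0.592% of B cell barcodes. At 2000 UMIs per cell the shares were 15.7%, 14.7% and 23.8% against 1.07%, 0 and 0.625%. Aldh1a3 (ENSMUSG00000015134) lies at chr7:66390890-66427517 on the minus strand.

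Aldh1a1 was rare and was distributed differently, with 111 UMIs in 99 cells. It was at 12.4, 9.68 and 12.3 CPM in the Fmod gate (12 UMIs) and 6.90, 8.33 and 13.1 in the Inmt gate (40 UMIs). In the Tnfsf11 gate it was at 5.06, 2.42 and 0 CPM and in the Cr2 gate at 3.55, 2.40 and 0, on 4 UMIs each, and it was 0 in all libraries of the Madcam1 gate, where 0 UMIs allow up to 7.38 CPM. The Fmod and Inmt gates lay above the others in every library, but they did not differ from each other beyond their spread, and Aldh1a1 did not pass the filter for testing. The Fmod value of the 1IC library rested on 1 UMI in 10 cells. With low-Malat1 barcodes left out, the Fmod gate of 2IC library 1 had 5.93 CPM against 6.08 in the Tnfsf11 gate. With gates at 1 UMI it had 4.29 CPM against 6.35 in the Madcam1 gate, so the order did not hold there. With no filter Aldh1a1 was called higher in the Inmt gate (edgeR adjusted p = 0.043) but not in the Fmod gate (edgeR adjusted p = 0.083). Aldh1a2 had 2 UMIs in all, in 2 ungated cells. It had 0 UMIs in the 5 gates. Over the 2243 retained cells a count of 0 would allow a share of up to 0.134% of cells with a UMI, so the 2 cells are at the limit of what this number of cells can show. Of cells in the Cr2 gate, 36.1% (83 of 230) had a UMI of at least 1 of the 3 enzymes, 81 of them of Aldh1a3 and 4 of Aldh1a1. In the Inmt gate 6.42% of cells (44 of 685) had such a UMI, 7 of them of Aldh1a3 and 37 of Aldh1a1. No cell of the Inmt gate had both, and 2 cells of the Cr2 gate did. Aldh1a1 (ENSMUSG00000053279) lies at chr19:20492715-20643465 on the plus strand and Aldh1a2 (ENSMUSG00000013584) at chr9:71215789-71296243 on the plus strand, and both overlap pseudogenes on the opposite strand.

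Crabp1, the retinoic acid binding protein, had 27 UMIs in 11 cells, of which the 2 leading cells held 14. Among the gates it was found in the Inmt gate alone, at 3.63, 5.95 and 0 CPM, on 10 UMIs in each 2IC library. The 10 UMIs of 2IC library 2 came from 1 cell, and that library had 0 with gates at 1 UMI or with barcodes holding B cell RNA left out, where the mean fell from 3.19 to 1.86 and 1.12 CPM. The 0 UMIs of the Cr2 gate allow up to 1.89 CPM. With no filter it was called higher in the Inmt gate (edgeR adjusted p = 0.016), on these few cells. The gene (ENSMUSG00000032291) lies at chr9:54764748-54773110 on the plus strand.

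Cyp26b1, which breaks retinoic acid down, was found in every gate of every library. It was at 196, 249 and 203 CPM in the Tnfsf11 gate, 186, 261 and 114 in the Madcam1 gate and 161, 202 and 86.1 in the Fmod gate. The Inmt gate had 146, 120 and 50.7 CPM and the Cr2 gate 89.9, 57.6 and 34.2. The Cr2 gate was the lowest in each library, although its range overlapped with those of the Fmod and Inmt gates because the libraries differed. The ranges of the Madcam1 and Tnfsf11 gates were both above that of the Cr2 gate. The difference from the mean of the other gates was -1.29 ± 0.22 in the Cr2 gate (log2, SE; edgeR adjusted p = 8.2e-05), and the ratio to the other 4 gates pooled was 0.573, 0.352 and 0.376. In the Tnfsf11 gate the difference was 0.78 ± 0.19 (edgeR adjusted p = 0.035). This call was lost without 2IC library 2, at 0.79 (edgeR adjusted p = 0.17), and without the 1IC library, at 0.59 (edgeR adjusted p = 0.19). In the Madcam1, Fmod and Inmt gates the differences were 0.51, 0.31 and -0.31, none past the threshold. A Cyp26b1 UMI was found in 18.6%, 25.7% and 12.0% of cells of the Cr2 gate and in 50.6%, 48.1% and 63.6% of cells of the Tnfsf11 gate. Cyp26b1 (ENSMUSG00000063415) lies at chr6:84571414-84593908 on the minus strand.

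Between the conditions, with 1 library in the 1IC group, values can only be set side by side. Over all retained cells Cyp26b1 was at 155 and 170 CPM in the 2IC libraries and 74.7 CPM in the 1IC library (95% interval 63.2 to 87.6). The 1IC library was lowest in the Cr2, Madcam1, Fmod and Inmt gates, the mixed and the ungated cells, but not in the Tnfsf11 gate. Stra6 of the Cr2 gate in the 1IC library, at 128 CPM (95% interval 91.6 to 173), lay close to that of 2IC library 1. Aldh1a3 of the Cr2 gate was highest in the 1IC library, at 174 CPM (95% interval 132 to 226), against 104 and 67.2 CPM in the 2IC libraries, which also differed from each other. The number of ICs, the library and the depth cannot be told apart in these comparisons.

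The Cr2 gate was not uniform. Its cells were split, after the levels by gate were known, by whether they held a UMI of Fcer2a or Fcgr2b, which encode Fc receptors of FDCs. Stra6 was at 217, 268 and 180 CPM in cells with such a UMI and at 33.5, 66.2 and 19.1 in those without, with no overlap. Aldh1a3 was at 155, 131 and 231 CPM against 43.8, 4.73 and 57.4, also with no overlap. Both genes of uptake and synthesis were thus found mainly in the cells with Fc receptor transcripts. Cyp26b1 was at 30.6, 73.0 and 9.23 CPM against 160, 42.5 and 86.1, lower in 2 libraries and higher in 2IC library 2. Rdh10 was at 164, 39.0 and 83.1 CPM against 48.9, 265 and 86.1, with no common direction.

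The number of Cr2 UMIs gave a like split. Cells with at least 2 had Stra6 at 191, 203 and 157 CPM against 23.7, 12.3 and 15.0 in cells with 1. Aldh1a3 was at 157, 80.5 and 200 CPM against 6.76, 12.3 and 75.0, and Cyp26b1 at 32.8, 44.7 and 19.6 against 196, 110 and 90.0. In each library Stra6 and Aldh1a3 were higher, and Cyp26b1 lower, in cells with more Cr2 UMIs. Cells with 1 Cr2 UMI had 7, 1 and 1 Stra6 UMIs in all, in 62, 8 and 11 cells. Some barcodes of the gate had little of the nuclear RNA Malat1, a sign of RNA quality. In those with under 1% of UMIs from Malat1 (35, 10 and 18 cells) Stra6 was at 206, 295 and 291 CPM, against 118, 143 and 93.9 in the others, and Aldh1a3 was at 249, 148 and 400 CPM against 75.2, 53.4 and 128. Both genes were higher in the low-Malat1 barcodes in every library, and both stayed called in the Cr2 gate when these barcodes were left out. These splits are descriptions of 1 set of cells and were not tested.

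**Figure D4:**
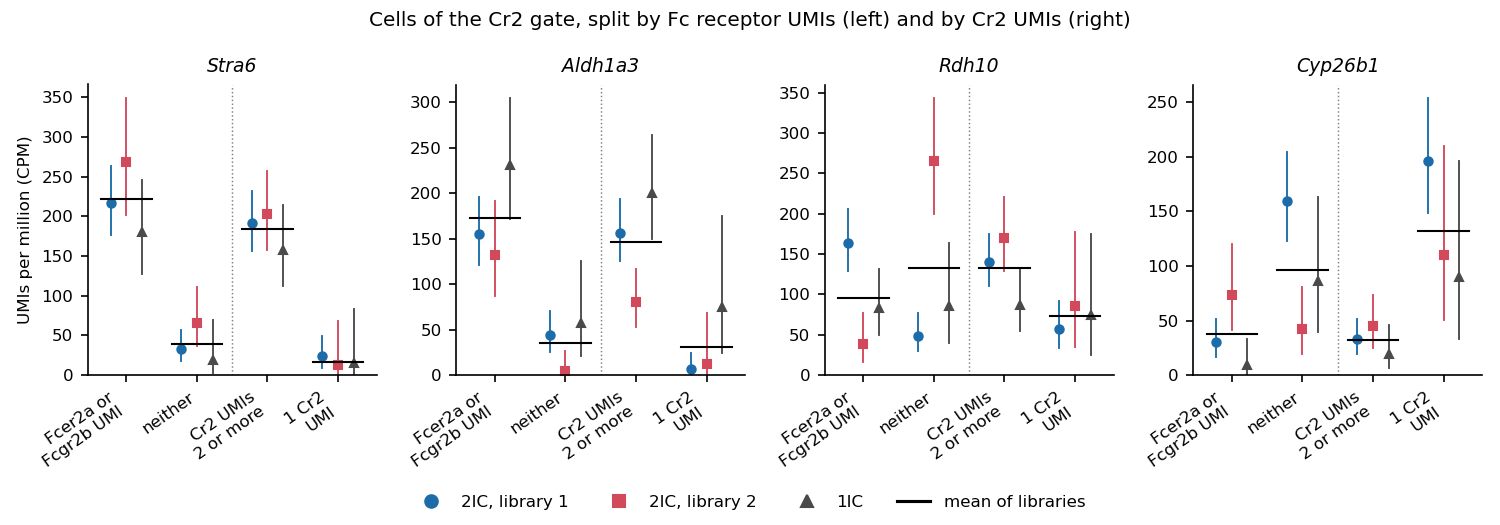
Levels (vertical axes, CPM, linear) in cells of the Cr2 gate split by Fc receptor UMIs (left of the dotted line) and by the number of Cr2 UMIs (right of it); points are libraries with exact Poisson 95% intervals for counting error, and horizontal bars are the mean of 3 libraries. Stra6 and Aldh1a3 are higher in cells with Fc receptor UMIs or with 2 or more Cr2 UMIs in every library, and Rdh10 shows no such order between the Fc receptor groups.

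Stra6 and Aldh1a3 were often found in the same cells of the Cr2 gate. Each had a UMI in 81 of the 230 cells, and 48 cells had both. Aldh1a3 was found in 55.3%, 55.6% and 75.0% of cells with Stra6 and in 21.4%, 17.6% and 26.5% of those without. Differences in UMIs per cell were not corrected for in these shares. Rdh10 and Aldh1a3 shared 41 cells, and over all libraries 50.6% of cells with Rdh10 had Aldh1a3 against 26.8% of cells without. By library the shares were 52.9%, 30.8% and 58.8% against 21.3%, 40.9% and 33.3%, so the direction was reversed in 2IC library 2. For Aldh1a3 and Cyp26b1 the shares were near equal, with Cyp26b1 in 18.5% of cells with Aldh1a3 and in 18.1% of those without.

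Across the 15 sums of library and gate, centred within each library, Pearson's r of log2 CPM was 0.79 between Stra6 and Aldh1a3, 0.55 between Stra6 and Rdh10 and 0.31 between Rdh10 and Aldh1a3. Cyp26b1 gave -0.53 with Stra6, -0.64 with Aldh1a3 and 0.09 with Rdh10. The 5 sums of a library share its depth, and these values describe the pattern over gates only. By the same measure over 7043 other genes, the genes most like Stra6 were Tmsb4x (0.98), Cd200 (0.97) and Tspan33 (0.97). Those most like Aldh1a3 were Dbi (0.95), Art2a-ps (0.95) and Homer2 (0.94). Rdh10 was most like Ubash3b (0.93), Actn1 (0.92) and Elovl6 (0.92), and Cyp26b1 most like Elp3 (0.89), Grem1 (0.85) and Hspa13 (0.84).

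A list of 38 other genes of retinoid storage, conversion, binding and reception was examined in the same way, of which 29 had UMIs in the gates and 13 were tested. In the Cr2 gate 2 of the 13 were called, both higher, where 15.5% of all genes were called, and in the Madcam1 gate 3, all higher (5.85% of all genes). The Tnfsf11 gate had 0 calls among the 13 in edgeR and in DESeq2, with 1 at an unadjusted p under 0.05 in edgeR (1.06% of all genes called). The Fmod gate had 1 higher and 1 lower (7.92%), and the Inmt gate 4 higher and 2 lower (17.4%). The median difference of the 13 was -0.04, -0.05, -0.16, 0.04 and 0.30 (log2) in the Cr2, Madcam1, Tnfsf11, Fmod and Inmt gates, against medians of all tested genes between -0.0023 and 0.015. By CPM, which does not rank genes per length, the corepressor Ncor1 (214 CPM) and the fatty acid and retinoic acid binding protein Fabp5 (122 CPM) were among the 3 leading genes of the 38. The retinoic acid degrading enzymes Cyp26a1 and Cyp26c1 had 0 UMIs in the gates.

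Lrat, which stores retinol as esters, had a pattern of its own. It was at 84.7, 91.6 and 80.0 CPM in the Madcam1 gate, 34.3, 24.0 and 28.0 in the Cr2 gate and 21.9, 4.83 and 5.64 in the Tnfsf11 gate. The Fmod gate had 0, 1.61 and 0 CPM and the Inmt gate 0.363, 0.595 and 1.88. The Madcam1 gate lay above the Cr2 gate and the Cr2 gate above the rest in all libraries, which is the reverse of the order of these 2 gates for Stra6. The difference from the other gates was 4.22 ± 0.46 in the Madcam1 gate (edgeR adjusted p = 1.4e-06) and 2.43 ± 0.42 in the Cr2 gate (edgeR adjusted p = 0.00015). It was lower in the Fmod gate, at -3.45 ± 1.00 (edgeR adjusted p = 0.033), and in the Inmt gate, at -4.07 ± 1.02 (edgeR adjusted p = 0.0057). Lrat overlaps the antisense gene Rbm46os over 11395 bases.

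Fabp5 was highest in the Cr2 gate, as Stra6 and Aldh1a3 were. It was at 519, 235 and 707 CPM in the Cr2 gate, at 95.9, 49.3 and 137 in the Madcam1 gate and at most 49.6 in any other gate of a library. The differences were 5.07 ± 0.23 in the Cr2 gate (edgeR adjusted p = 2.5e-14), 1.89 ± 0.43 in the Madcam1 gate (edgeR adjusted p = 0.0087) and -4.54 ± 0.49 in the Inmt gate (edgeR adjusted p = 4.3e-07). Fabp5 has near-identical pseudogene copies, so its level is uncertain. Dhrs3, which turns retinal back into retinol, was higher in the Madcam1 gate by 1.34 (edgeR adjusted p = 0.0093), with 95.9, 49.3 and 137 CPM, equal to the values of Fabp5 because the counts of the genes there, 17, 7 and 12 UMIs, were equal although they came from different cells.

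In the Inmt gate 4 of the listed genes were higher. Adh1, an alcohol dehydrogenase that can use retinol, was at 126, 124 and 128 CPM there, against at most 98.7 in any other gate of a library, a difference of 0.84 (edgeR adjusted p = 0.00012). Rdh14, a retinol dehydrogenase, differed by 0.83 (edgeR adjusted p = 0.020), the receptor Rara by 0.78 (edgeR adjusted p = 0.017) and its partner receptor Rxra by 0.70 (edgeR adjusted p = 0.042). These 4 differences were smaller than those of Stra6, Aldh1a3, Lrat and Fabp5. The number of listed genes called higher in the Inmt gate depended on the processing. Of all genes, 9.99% were called higher there in the main fit, and the like share is given in brackets. The number was 2 in DESeq2 (7.6%), 2 with gates at 1 UMI (8.84%) and 1 with no library block (3.75%). With barcodes holding B cell RNA left out it was 1 of 11 tested (8.49%), and with thinned cells 0 of 3 (14.6%). It was 3 without TMM (7.86%), without low-Malat1 barcodes (9.31%) and without shared barcodes (9.14%). It stayed at 4 with no filter (4.66%), with contaminant barcodes kept (9.91%) and with the Cr2 gate at 2 UMIs (10.8%). The receptor gene Rarb, named after its values were seen, did not pass the filter, with 11, 4 and 8 UMIs in the Cr2 gate (23 in all) and 4 UMIs in the other 4 gates together. Without the filter its difference in the Cr2 gate was 4.75 (log2). As the gene was picked on these same values, this describes them and is no test.

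**Figure D5:**
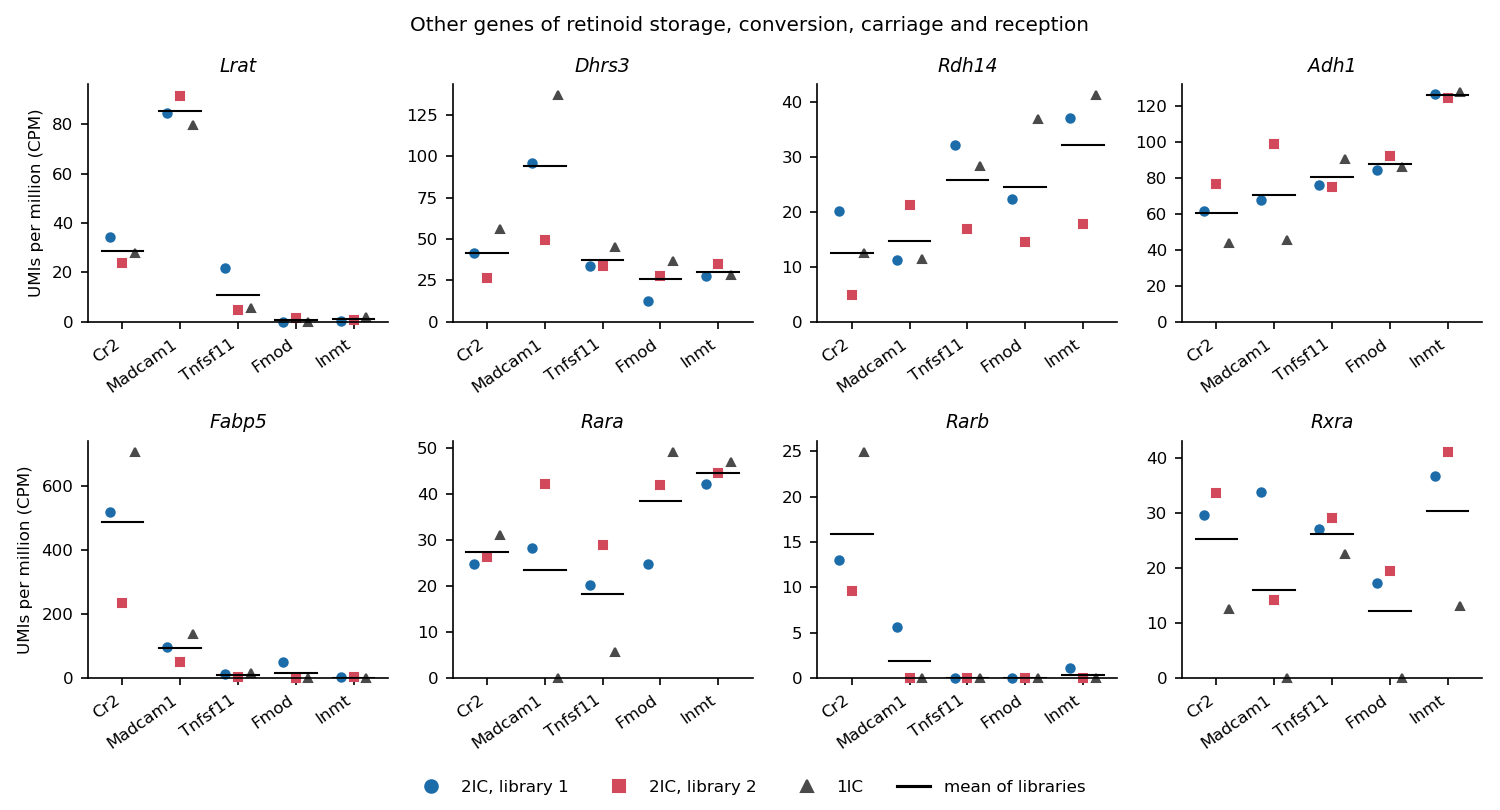
Levels (vertical axes, CPM, linear and separate for each gene) of 8 other retinoid genes in the 5 gates (horizontal axes); points are libraries and horizontal bars the mean of 3 libraries. Lrat is highest in the Madcam1 gate, Fabp5 and Rarb in the Cr2 gate and Adh1 in the Inmt gate.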

How the data were processed

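Sorted cells were run on the 10x Genomics 3′ kit, and the authors made tables of UMI counts with Cell Ranger (5.0.0 in the file headers) on GRCm38. They deposited these counts for 3 libraries, without normalization. The short descriptions of the 2IC libraries conflict, so libraries were grouped by their titles. The genes, gates and lists were chosen with earlier results of these data known.

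Retained barcodes had at least 200 genes, at most 10% mitochondrial UMIs and no UMI of 13 contaminant genes (blood, endothelial, epithelial and other markers, Cd79a, Cd79b and S100b among them), so those genes are at 0 by the filter (2243 of 5486 barcodes remained). No doublet caller was run. B cell barcodes, used as background, had at least 3 UMIs of Cd79a and Cd79b and at most 2 of 3 collagen genes. Counts were summed per library and gate, since cells are not replicates (at least 5 cells, 15 sums), and fitted in edgeR 4.0.16 (R 4.3.3; TMM, filterByExpr, quasi-likelihood test, library as a block, Benjamini-Hochberg adjusted p under 0.05), after a test on simulated data. Contrasts set a gate against the mean of the other 4. The SE of an edgeR difference was derived from the test, as the absolute log2 difference divided by the square root of its F statistic. It was not estimated separately. A gate gene, and genes that go with it, differ by construction of the gates, and the 8 genes took no part in gating. Intervals are exact Poisson or binomial 95% intervals and cover counting error only, and a count of 0 was taken to allow up to 3 counts. DESeq2 1.42.0, no TMM, no filter, no block, other gates and cell filters, thinning to 2000 UMIs and leaving out libraries were tried. Genes are named if they are among the 8, are called or among the 3 leading of the retinoid list, or are among the 3 most alike (log2 CPM, prior count 2), and some results for single listed genes are not reported here. The gene positions are those of GRCm38.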

Additional observations from a re-analysis of the deposited data

Results flagged for a closer look

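Aldh1a3 in the Madcam1 gate moved in opposite directions in the 2 conditions. Against the mean of the other gates, on the log2(CPM + 5) scale, it was at 1.23 in the 1IC library and at -1.24 and -0.24 in the 2IC libraries. The Madcam1 gate held 0, 1 and 3 Aldh1a3 UMIs in 2IC library 1, 2IC library 2 and the 1IC library, and the difference between the conditions was not tested.

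B cell barcodes, used above as background for Stra6 and Aldh1a3, held UMIs of 4 of the genes. There were 43 UMIs of Stra6 in 13 of 711 barcodes, 22 of Aldh1a3 in 14, 15 of Rdh10 in 13 and 13 of Cyp26b1 in 12, all above the 3 counts that a count of 0 allows. Those with Stra6 had a median of 33 Cxcl13 UMIs and 10179 UMIs in all, against 0 and 3708 in those without. Those with Aldh1a3 had a median of 61 Cxcl13 UMIs, and those with Rdh10 or Cyp26b1 a median of 1 and 1.5.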

How the results depend on the processing

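Stra6 and Aldh1a3 stayed higher and Cyp26b1 lower in the Cr2 gate, and called, in each of 14, 13 and 14 alternatives, with log2 differences of 4.81 to 6.54, 3.54 to 6.03 and -2.23 to -1.08. The alternatives reuse cells of the same libraries, and Stra6 and Aldh1a3 passed the filter on low counts through that gate. These counts of alternatives are therefore no independent support. With contaminant barcodes kept, the mean level in the Cr2 gate fell from 142 to 66.8 CPM for Stra6 and from 115 to 50.2 for Aldh1a3. The number of the 4 genes called was 3 in the Cr2 gate (15.5% of all genes). It was 4, with Rdh10 added, with that gate at 2 UMIs (22.1% of all genes), without 2IC library 2 (13.4%) and with no filter on low counts (6.67%). With thinned cells it was 2 of 3 tested (20.8%). In the Madcam1 gate, with 1 called (Stra6), the number was 1 with gates at 1 UMI (2.99% of all genes), but Rdh10 in place of Stra6. It was 2 with no filter on low counts (2.62%), 2 with contaminant barcodes kept (9.42%) and 0 with cells thinned to 2000 UMIs (6.09%). In the Tnfsf11 gate, with 1 called, it was 0 without the library block (0.0284% of all genes). It was also 0 with contaminant barcodes kept (1.13%), with gates at 1 UMI (1.21%) and with thinned cells (2.23%). In the Fmod gate, with 0 called, it was 1 with no filter (3.07% of all genes). In the Inmt gate, with 3 called, it was 6 of 7 tested with no filter, with Rbp4, Aldh1a1 and Crabp1 added. It was 1 without the library block (6.64% of all genes), with thinned cells (24.9%) and with barcodes holding B cell RNA left out (15.2%). It was 2 with gates at 1 UMI (14.8%), with low-Malat1 barcodes left out (16.5%) and with shared barcodes left out (16.5%). With no filter, 7.02% of 21108 genes were called in the Inmt gate. The median difference of all genes was then 0.15 in the Inmt gate and -0.28 in the Madcam1 gate. The Inmt gate held 31.0% of the UMIs of retained cells, the most of the 5 gates, so calls of rare genes as higher there may reflect depth, which was not tested. Leaving out 1 library in turn gave 0 to 2 in the Madcam1 gate (1.87% to 4.63% of all genes). It gave 0 to 1 in the Tnfsf11 gate (0.627% to 1.09%) and 1 to 2 in the Inmt gate (8.96% to 12.9%). Aldh1a3 in the Madcam1 gate turned from 0.49 to -0.28 with low-Malat1 barcodes left out, and over the libraries left out it ranged from -0.90 (without the 1IC library) to 1.53 (without 2IC library 2). Cyp26b1 in that gate turned from 0.51 to -0.064 with contaminant barcodes kept. The cause was not tested. Of 275 log2 differences under alternatives, 243 kept direction and side of the threshold. Of the others, 8 were called only there, 21 were called no longer and 3 reversed. Of 400 mean levels, 378 moved by no more than the SD between libraries. A mean with 1 library left out cannot move further than that, and Aldh1a2 was at 0 in every gate. The count of 378 is therefore no measure of robustness.

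Over all genes, the counts called in the Cr2, Madcam1, Tnfsf11, Fmod and Inmt gates were 1089, 412, 75, 558 and 1224. They were 502, 149, 2, 150 and 468 without the library block, 317, 93, 34, 125 and 380 with thinned cells (1526 genes tested) and 658, 128, 43, 219 and 615 without 2IC library 1. Without 2IC library 2 the Madcam1 and Fmod gates had 258 and 291, and with gates at 1 UMI 202 and 278. With contaminant barcodes kept the Cr2 and Madcam1 gates had 2637 and 864, with barcodes holding B cell RNA left out the Madcam1 and Tnfsf11 gates had 254 and 47, and with no filter the Tnfsf11 gate had 189. Without TMM the share of called genes that were higher went from 49.8% to 64.7% in the Madcam1 gate, from 64.0% to 77.5% in the Tnfsf11 gate and from 57.5% to 47.0% in the Inmt gate, and the median of all genes in the Madcam1 gate shifted by 0.12, but no call of the 4 genes changed direction. Shared barcodes and B cell RNA were left out as alternatives chosen after seeing the data. No paired analysis of 2IC against 1IC was possible because the 1IC group has 1 library. Depth limits the rare genes Rbp4, Aldh1a1, Aldh1a2 and Crabp1, and the Madcam1 gate with 44 cells.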
